A study of Homo sapiens with 9 samples.

Results

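The regions described here are stretches of open chromatin that were called as peaks in every library of the series and that stood nearer to the top of the peak list in all 3 WX-02-23 libraries than in any WX-02-43 or DMSO library. They number 2255 of the 59637 regions shared by all 9 libraries (3.78%), out of 128994 merged regions in all. To find them, peaks on chromosomes 1 to 22 and X that overlapped by at least 1 bp were merged across the lists. In each list the peaks were then ranked by the authors' −log10 p, the rank was divided by the number of peaks, and a region took the fraction of its best peak. A rank fraction near 0 is the strongest peak of a library and one near 1 the weakest. A member had 3 WX-02-23 fractions below all 6 others and a WX-02-23 mean lower by at least 0.08. The values that set WX-02-23 apart therefore chose the members, and they are given below as a description, without a test.

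The libraries came from 22Rv1, a line of human prostate carcinoma cells, whose SF3B1 gene had been edited to the C1111S form. SF3B1 is a core protein of the spliceosome. All 3 groups share this edit. The groups were cells given WX-02-23 at 20 µM, cells given WX-02-43 at 20 µM and cells given DMSO (0.1%), the vehicle, each for 3 h and each with 3 libraries. Whether the edited cells are a single clone, and whether replicates were separate cultures, is not given in the sources used here, so the spread between libraries may be technical. WX-02-23 and WX-02-43 are called stereoprobes in the labels, and the series concerns covalent small molecules and the pioneering function of FOXA1.

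FOXA1 is a pioneer factor, a transcription factor that can bind its sites in compacted chromatin and make them accessible to other factors. In prostate epithelium it opens enhancers that the androgen receptor then uses. ATAC-seq measures accessibility: a transposase inserts sequencing adapters where DNA is free of nucleosomes, so a site that is open in more cells, or more open per cell, collects more fragments. These cannot be told apart in libraries made from many cells. A genome and gene annotation of build hg19, in which the peaks were called, were not used here, so regions are given by position alone, in hg19.

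The lists held 81962 to 105132 peaks. WX-02-23 replicate 1 was the longest list and DMSO replicate 1 the shortest. A longer list adds weak peaks at the bottom and so lowers the fraction of every region above them. Over all shared regions the median fraction accordingly ran from 0.287 in WX-02-23 replicate 1 to 0.371 in DMSO replicate 1. Ranking among the shared regions alone removes this offset, and values on that scale are given where they matter. The commonest local background at a summit, solved from the deposited fold and −log10 p, was 1.0 to 1.41 fragments per library.

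Across the members, peaks that stood in the middle of the WX-02-43 and DMSO lists stood in the upper part of the WX-02-23 lists. The median rank fraction of the 2255 members was 0.269, 0.299 and 0.302 in the 3 WX-02-23 libraries. It was 0.523, 0.469 and 0.455 in the WX-02-43 libraries and 0.557, 0.509 and 0.458 in the DMSO libraries. The WX-02-23 libraries lay close together, and the WX-02-43 and DMSO libraries overlapped each other. Median fold enrichment over the local background, the authors' own per-peak ratio, averaged 10.2 ± 0.17 in WX-02-23, 7.41 ± 0.18 in WX-02-43 and 7.59 ± 0.54 in DMSO (SD, n = 3 each). Over all shared regions the averages were 9.05 ± 0.19 in WX-02-23, 8.5 ± 0.25 in WX-02-43 and 9.02 ± 0.57 in DMSO. The median number of fragments stacked at the summit averaged 32.7 ± 4.04 in WX-02-23, 22.3 ± 2.08 in WX-02-43 and 21.3 ± 2.52 in DMSO. Members were thus somewhat weaker than the typical shared region in WX-02-43 and DMSO, where shared regions had 32.7 and 33.7 fragments, and similar to it in WX-02-23, where shared regions had 33.0.

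**Figure D1:**
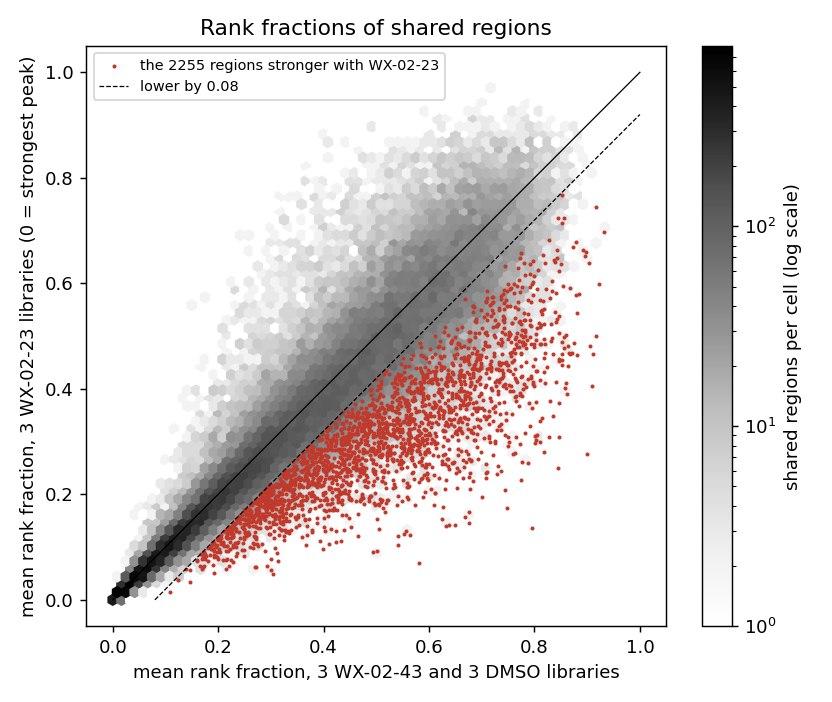
Mean rank fraction of each of the 59637 shared regions in the 3 WX-02-23 libraries (vertical axis) against that in the 6 WX-02-43 and DMSO libraries (horizontal axis), with 0 for the strongest peak of a list. Grey cells count regions on a log scale, the 2255 members are red, the solid line marks equal fractions and the dashed line a fraction lower by 0.08. Members lie below the dashed line and thin out toward the strongest peaks, where a fraction has little room to fall.

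The shift was graded and mostly moderate. Rank differences are given as WX-02-23 minus the mean of the other 6 libraries, so a negative value means nearer to the top with WX-02-23. The median difference was -0.19, and members ran from -0.66 to -0.0801. In fold enrichment the median member was 1.3 times as high with WX-02-23 as with the other 6 libraries, and 346 of 2255 members (15.3%) reached 1.5 times. Over all shared regions the median was 1.02 times, and 0.634% reached 1.5 times. Only 14 members reached 2 times, and no other shared region did. The folds of 1514 members (67.1%) did not overlap between WX-02-23 and the other 6 libraries, where 4.32% of all shared regions had such folds. For the rest of the members the −log10 p set the regions apart and the fold did not.

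The member with the largest difference was chr11:114000674-114001345. Its rank fractions were 0.13, 0.155 and 0.125 with WX-02-23, against 0.981, 0.836 and 0.706 with WX-02-43 and 0.891, 0.817 and 0.542 with DMSO. At the summit 66, 52 and 62 fragments were stacked with WX-02-23, 13, 18 and 20 with WX-02-43 and 15, 17 and 26 with DMSO. This region stood in the weaker part of every WX-02-43 and DMSO list and near the top of all 3 WX-02-23 lists. Fold enrichment averaged 10.9 ± 0.53 with WX-02-23, 4.27 ± 0.54 with WX-02-43 and 5.06 ± 0.88 with DMSO (SD, n = 3 each). The peak was also 2 times as wide with WX-02-23, and its median summit lay 6 bp from that of the other libraries.

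Second was chr1:249217569-249218125, with 45, 29 and 33 fragments with WX-02-23, 11, 11 and 15 with WX-02-43 and 10, 13 and 14 with DMSO. Its summit lay 71.5 bp from that of the other libraries, the farthest of the 12 largest. At chr8:82951977-82952605, fold enrichment averaged 14.1 ± 1.43 with WX-02-23, 6.29 ± 1.45 with WX-02-43 and 6.02 ± 0.72 with DMSO. Both regions showed no overlap in fragments between WX-02-23 and the other libraries, while WX-02-43 and DMSO overlapped.

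Chromosome 4 held a pair of the 12. At chr4:24806652-24807128, fold enrichment was 11.9 ± 0.56 with WX-02-23, 5.55 ± 0.65 with WX-02-43 and 5.33 ± 0.39 with DMSO. At chr4:67957968-67958525 it was 12 ± 0.41 with WX-02-23, 5.0 ± 0.74 with WX-02-43 and 6.19 ± 0.11 with DMSO. The other 7 were chr12:112432321-112432923, chr12:44922115-44922641, chr10:52325963-52326306, chr11:100554959-100555463, chr13:96212106-96212843, chr3:144725602-144726136 and chr8:50145709-50146037. Over all 12, fold enrichment was 1.81 to 2.34 times as high with WX-02-23. The lowest WX-02-23 pileup of each region was above the highest of its WX-02-43 and DMSO pileups. Shallow peaks limit this ranking, because the 6 libraries without WX-02-23 stacked only 9 to 26 fragments at these summits. All 12 met the same criteria when ranked among shared regions and when ranked by fold. In lists shortened to 81962 peaks each, 10 of the 12 were no longer held by all 9 libraries and could not be compared, and chr11:114000674-114001345 and chr13:96212106-96212843 met the criteria.

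**Figure D2:**
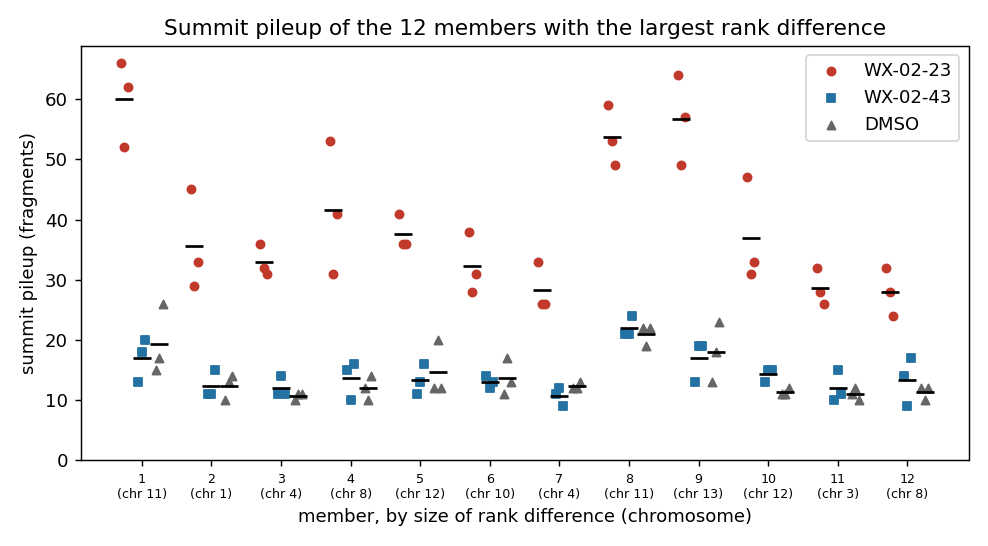
Fragments stacked at the summit (vertical axis) in every library for the 12 members with the largest rank difference (horizontal axis, in order, with the chromosome), in WX-02-23 (red circles), WX-02-43 (blue squares) and DMSO (grey triangles). Black bars are group means of 3 libraries. WX-02-23 libraries had 24 to 66 fragments and lay above all others at each region.

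The 8 members that ranked highest with WX-02-23, beside the 12 above, were mostly prominent without it, and most of their shifts were small. At chr7:12260055-12260997, the rank fractions were 0.013, 0.019 and 0.013 with WX-02-23, 0.115, 0.108 and 0.071 with WX-02-43 and 0.179, 0.12 and 0.06 with DMSO. The summit held 105, 85 and 96 fragments with WX-02-23, against 56, 61 and 69 with WX-02-43 and 45, 57 and 75 with DMSO. Fold enrichment averaged 16.8 ± 0.47 with WX-02-23, 13.7 ± 0.91 with WX-02-43 and 14.2 ± 2.09 with DMSO (SD, n = 3 each), and the highest DMSO library, at 16.31, lay above the lowest WX-02-23 library, at 16.26. This was the highest-ranked member in WX-02-23, and its fold did not separate the groups.

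A pair of regions combined high strength with a wide shift. At chr12:121323187-121323900, fold enrichment was 17.2, 16.2 and 17.3 with WX-02-23, 12.5, 11.2 and 12 with WX-02-43 and 6.96, 10.7 and 13 with DMSO. At chr1:182239642-182240492, it was 12.8, 14.1 and 14.5 with WX-02-23, 9.01, 10.7 and 9.43 with WX-02-43 and 11, 9.27 and 9.82 with DMSO. Neither region's WX-02-23 libraries overlapped the others. The remaining 5 of the 8 strongest were chr19:30232430-30233093, chr1:245223892-245224986, chr2:35839537-35840315, chr4:66901162-66901994 and chr5:99057172-99057941, with folds 1.12 to 1.26 times as high with WX-02-23. Folds overlapped between WX-02-23 and other libraries at chr1:245223892-245224986 and chr5:99057172-99057941. Of these 5, only chr19:30232430-30233093 met the criteria when ranked by fold, and chr7:12260055-12260997 did not meet them either.

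The member of median difference, chr11:100646852-100647718, shows the usual size. It had 51, 37 and 44 fragments with WX-02-23, 32, 30 and 25 with WX-02-43 and 21, 24 and 31 with DMSO, and folds of 9.44 ± 0.63 with WX-02-23, 8.52 ± 1.77 with WX-02-43 and 7.5 ± 0.79 with DMSO. Its folds overlapped between WX-02-23 and WX-02-43. It did not meet the criteria when ranked among shared regions. At the threshold, the last members were chr20:44001882-44002851, chr5:17311473-17312850 and chr1:36565212-36565895, with differences of -0.0801, -0.0801 and -0.0805. Just outside were chr5:95977590-95978500, chr15:93070405-93070960 and chr7:51134018-51135084, with differences of -0.08, -0.08 and -0.0799. In all, 655 shared regions had no overlap of ranks but a difference under 0.08.

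In each round below, the ranks in the left-out libraries were not used to choose that round's regions. Only regions with a peak in all 9 libraries, the left-out ones included, were read. The regions of a round are not the list of members, whose choice used all 9 libraries. The rounds are therefore no independent test of the members. Regions were chosen by the same rule without replicate 1 of each group, and then read in the 3 libraries numbered 1, and likewise for numbers 2 and 3. Without replicate 1, 2592 regions were chosen, and the left-out WX-02-23 library stood nearer to the top than both other left-out libraries in 2349 of them (90.6%), against 66.4% of all shared regions. Without replicate 2 this held in 3026 of 5199 (58.2%), against 33.5%. Without replicate 3 it held in 3159 of 7600 (41.6%), against 23.5%. The share exceeded that of all shared regions in each round, although both moved with the lengths of the left-out lists.

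The median rank difference in the left-out libraries was -0.228, -0.0745 and -0.0173 for the chosen regions and -0.0598, 0.00021 and 0.0175 for all shared regions. Ranked among shared regions, the rounds became alike. The left-out WX-02-23 library then stood nearest to the top in 60.4%, 61.6% and 61.7% of the chosen regions, against 33.9%, 34.8% and 35.4% of all shared regions. The median difference was -0.0914, -0.0965 and -0.0949 for the chosen regions on this scale, and 0.00098, -0.00062 and -0.00086 for all shared regions. Over all 27 ways of leaving out 1 library per group, the share on the deposited lists exceeded that of all shared regions by 18 to 27.4 percentage points. The rounds used 6 libraries to choose and therefore let in regions that 9 libraries would not. On either scale a large part of the chosen regions did not keep the direction against both other libraries.

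**Figure D3:**
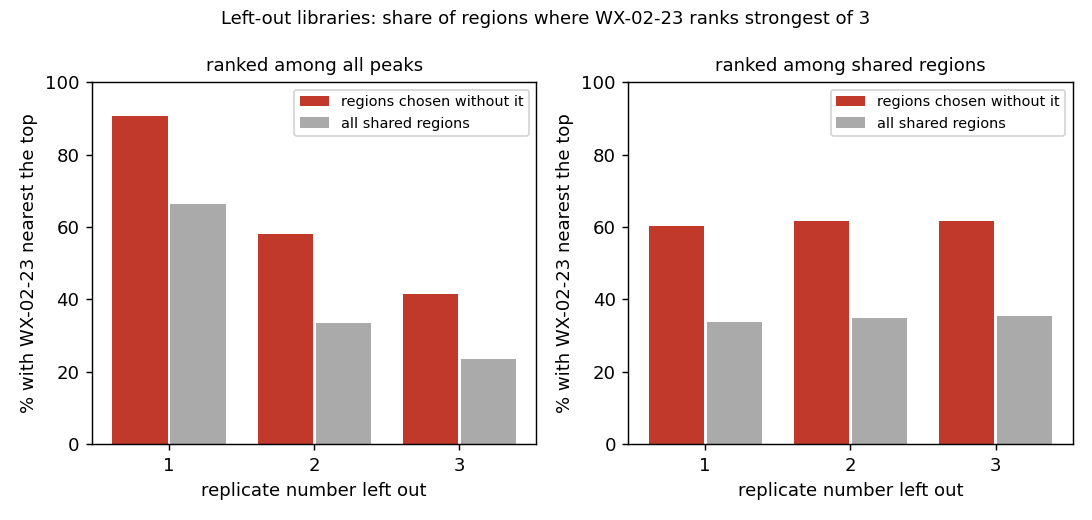
Percent of regions (vertical axis) in which the left-out WX-02-23 library stood nearer to the top of the list than both other left-out libraries, for each replicate number left out (horizontal axis). Red bars are regions chosen without those libraries and grey bars are all shared regions, with ranks among all peaks on the left and among shared regions on the right. Red exceeds grey in all 6 pairs of bars, and on the right the red bars are 60.4%, 61.6% and 61.7%.

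WX-02-43 against DMSO is a contrast that the rule did not use, since it treated those 6 libraries alike, and it asks whether the other stereoprobe moved the same regions. No member passed limma at an adjusted p of 0.05 in either direction (lowest adjusted p = 0.189), and over all shared regions 0.0% were called stronger and 0.00168%, a single region, weaker with WX-02-43. Without DMSO replicate 3, 2 members were called stronger and 1 weaker, and over all shared regions 2 were called in each direction (0.00334% each). At an unadjusted p under 0.05, 179 members (7.94%) were stronger and 79 (3.50%) weaker with WX-02-43, where all shared regions gave 3.34% and 4.11%. Without quantile normalization the unadjusted counts were 62 members stronger (2.75%) and 182 weaker (8.07%), where all shared regions gave 1.05% and 8.84%. The whole set then shifted, with a median log2 change of -0.05 for the members and -0.07 for all shared regions. In simulated data, regions drawn at random from all shared regions were changed, with normal noise at each region's own spread. There limma recovered 84 of 100 regions changed by 1 on the log2 scale and 25 of 100 changed by 0.5. Differences of the smaller size would thus mostly have been missed among shared regions. Recovery among members alone was not simulated.

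By rank, members tended to lie slightly nearer to the top with WX-02-43 than with DMSO. All 3 WX-02-43 fractions lay below all 3 DMSO fractions in 205 members (9.09%) and above them in 85 (3.77%), where the shares over all shared regions were 5.23% and 5.17%. The median difference, WX-02-43 minus DMSO, was -0.0221 for members, about 0 for all shared regions (-5.42e-05) and -0.00955 for the 1452 shared regions that met the mirror rule, weaker with WX-02-23. Among shared regions whose mean fraction over the 6 libraries lay between 0.3 and 0.8, the medians were -0.0233 for 1856 members and 0.00155 for all 32760. The difference was negative in 1400 of 2255 members (62.1%), in 58.1% of the mirror set and in 50.1% of all shared regions. For these 1400 members the WX-02-43 mean fell between those of WX-02-23 and DMSO, which the rule fixes for any such member. The mirror set leaned the same way to a smaller extent. Ranked by fold enrichment in place of −log10 p, the lean was smaller, with a median of -0.0142 for members and -0.00367 for all shared regions, and 7.73% of members and 7.58% of all shared regions lay without overlap on the stronger side.

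Single libraries weighed on this median. Without DMSO replicate 1 it was -0.00192, and without WX-02-43 replicate 1 it was -0.0399. The gap between members and all shared regions was negative with each of the 9 libraries left out, from -0.0287 to -0.0126. Ranked among shared regions, the median was -0.0204 for members, -0.00751 for the mirror set and 0.00019 for all shared regions, and the gap ran from -0.0193 to -0.0144 without each library.

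**Figure D4:**
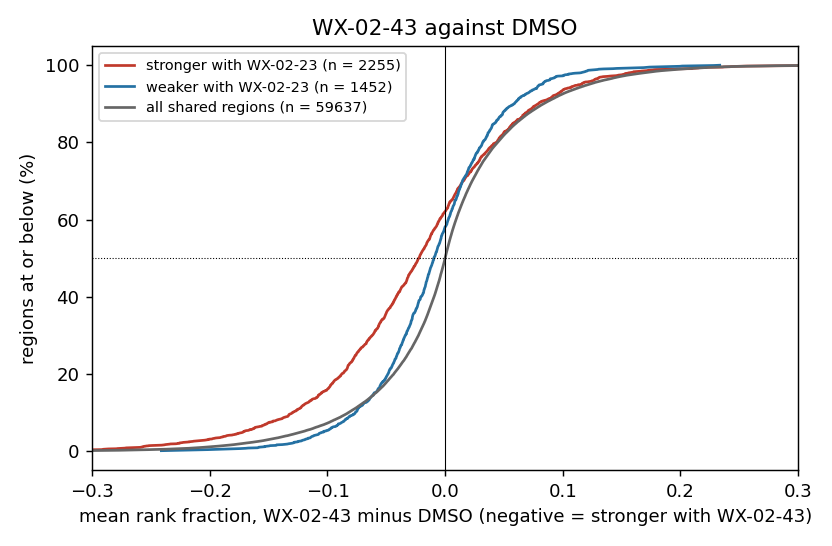
Cumulative percent of regions (vertical axis) by the difference in mean rank fraction, WX-02-43 minus DMSO (horizontal axis, negative for stronger with WX-02-43), for the 2255 members (red), the 1452 regions weaker with WX-02-23 (blue) and all 59637 shared regions (grey). The red curve crosses the 50% line at -0.0221, left of the grey curve, which crosses it at about 0.

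Members came from moderate and weak peaks of the vehicle lists. No shared region with a mean DMSO fraction under 0.1 was a member, of 8871. The share of shared regions that were members was 0.39% at DMSO fractions of 0.1 to 0.2, 4.23% at 0.3 to 0.4, 6.69% at 0.6 to 0.7 and 13% at 0.8 to 0.9. The median difference of members was -0.0861 at fractions of 0.1 to 0.2 and -0.31 at 0.8 to 0.9. This order follows in part from the rule, since a peak near the top cannot rise by 0.08 and a weak one has room to. The mirror set had its highest share among fairly strong peaks. It made up 0.451% of shared regions at 0 to 0.1, 2.69% at 0.1 to 0.2, 4.38% at 0.2 to 0.3 and 1.05% at 0.6 to 0.7. Its rule sets a limit too, since a weak peak has little room to fall.

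In shape, members were compact regions, mostly with a single peak, and so were the regions of the mirror set. Their median width was 576 bp, against 621 bp for all shared regions and 608 bp for the mirror set. Only 103 members (4.57%) exceeded 1000 bp, against 5.65% of the mirror set and 17.4% of all shared regions. The best peak itself was wider with WX-02-23, with medians of 494, 435 and 444 bp in WX-02-23, against 333, 371 and 385 bp in WX-02-43 and 325, 362 and 400 bp in DMSO. Over all shared regions the medians overlapped, at 493, 428 and 432 bp in WX-02-23, 389, 436 and 452 bp in WX-02-43 and 404, 457 and 486 bp in DMSO. Peak width follows strength in such lists, so this is not a separate finding.

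Most summits of members stayed in place. The median summit with WX-02-23 lay within 50 bp of that in the other libraries in 1746 members (77.4%), with a median distance of 20 bp, against 84.2% and 14 bp for all shared regions and 72.5% and 23.5 bp for the mirror set. More than 1 peak in some library was found in 494 members (21.9%), in 22.1% of the mirror set and in 24.6% of all shared regions. In most members the stronger peak thus stood on the same summit.

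By chromosome, members made up between 1.59% and 5.75% of the shared regions, against 3.78% overall. The highest shares were on chromosome 8 (151 of 2625, 5.75%), chromosome 4 (140 of 2822, 4.96%), chromosome 18 (59 of 1197, 4.93%) and chromosome 13 (69 of 1475, 4.68%). The lowest were on chromosome 19 (43 of 2710, 1.59%), chromosome 22 (22 of 1218, 1.81%), chromosome 16 (48 of 2051, 2.34%) and chromosome 17 (70 of 2719, 2.57%). As background, chromosomes 19, 22, 16 and 17 are rich in genes, and chromosomes 4, 13 and 18 are poor in them. Chromosome 8, with the highest share, is in neither list, and gene content was not analysed here. The mirror set was also lowest on chromosomes 19 (0.701%), 16 (1.17%) and 22 (1.23%), so these chromosomes had few regions that changed rank in either direction. On chromosomes 8, 4, 18 and 13 it made up 2.9%, 2.55%, 2.67% and 2.98%, above its 2.43% over all chromosomes.

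Peak strength, which limits membership, may differ between chromosomes, so the shares were also taken within 1 range of strength. Among shared regions whose mean fraction over the 6 libraries lay between 0.3 and 0.8, members made up 5.67% in all, 8.45% on chromosome 8, 7.03% on chromosome 4, 2.97% on chromosome 19 and 2.89% on chromosome 22. These chromosomes thus kept their side of the overall share. The median difference of the members varied less, from -0.151 on chromosome 19 to -0.215 on chromosome 3. Copy number was not analysed here.

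**Figure D5:**
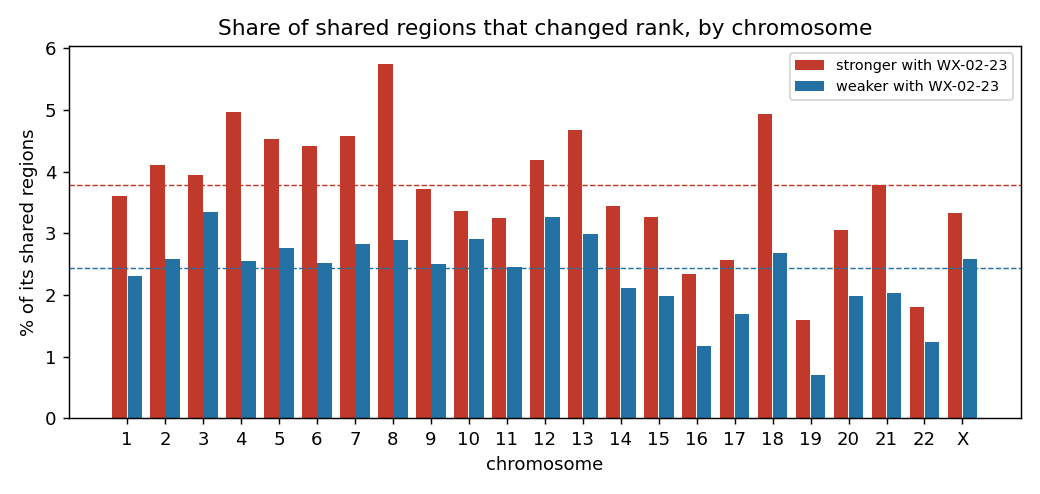
Percent of the shared regions of each chromosome (vertical axis) that were stronger with WX-02-23 (red bars) or weaker with it (blue bars), by chromosome (horizontal axis). Dashed lines mark the shares over all chromosomes, 3.78% and 2.43%. Chromosome 8 has the highest red bar at 5.75% and chromosome 19 the lowest at 1.59%.

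Regions next to members were also read, leaving members out. The nearest shared region that was no member lay a median of 13.6 kb away. Its median rank difference was -0.00493, against -0.00686 for all shared regions that were no members. Shared regions outside both sets that lay within 1 kb of a member had a median difference of -0.00264 (n = 186), those at 2 to 5 kb one of -0.00113 (n = 283), those at 5 to 10 kb one of -0.0104 (n = 615) and those at 50 to 200 kb one of -0.00758 (n = 12058). All shared regions outside both sets had a median of -0.00804. Since regions that met the rule were left out, these values do not show how far along the chromosome a change reached.

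Members were spread along the chromosomes mostly one by one. Another member lay within 50 kb of 267 members (11.8%), and a member lay within 50 kb of 9.95% of all shared regions and 11.8% of the mirror set. Of the windows of 100 kb that held a member, 1973 held 1, 130 held 2, 6 held 3 and 1 held 4. The window with 4 was on chromosome 1, its members reaching over chr1:185607061-185650533 among 6 shared regions, and their fold was 1.09 to 1.22 times as high with WX-02-23. The 6 windows with 3 were on chromosomes 10, 12, 4, 6, 7 and 8.

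That on chromosome 10 held the sixth member by size of difference, chr10:52325963-52326306, with folds of 9.57 ± 0.56 with WX-02-23, 4.88 ± 0.49 with WX-02-43 and 5.16 ± 1.07 with DMSO (SD, n = 3 each). Its neighbours chr10:52344862-52345239 and chr10:52359924-52360400 had rank differences of -0.258 each, and the other shared regions of the window had a median of 0.0169. The member chr7:95294568-95295021 reached 11.2 ± 1.44 fold with WX-02-23, 5.39 ± 1.51 with WX-02-43 and 6.9 ± 1.09 with DMSO, beside chr7:95258047-95258789 and chr7:95289044-95289795, whose folds were 1.21 and 1.19 times as high. The member chr12:85882823-85883410 reached 13.5 ± 1.9 fold with WX-02-23, 8.1 ± 0.62 with WX-02-43 and 8.17 ± 1.85 with DMSO. In the chromosome 10 window rank differences of members ran from -0.539 to -0.258. They ran from -0.344 to -0.172 on chromosome 12 and from -0.453 to -0.149 on chromosome 7. Outside its members, the chromosome 12 window had a median difference of 0.239. Members ran from -0.399 to -0.0822 in the chromosome 8 window and from -0.138 to -0.108 in that with 4 members. The windows on chromosomes 4 and 6 ran from -0.194 to -0.17 and from -0.153 to -0.0989.

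Regions that were called only with WX-02-23, 1161 in number, lay near members somewhat more often than near shared regions at large. Such a region was within 50 kb of 162 members (7.18%), of 4.75% of the mirror set and of 4.28% of all shared regions. Within 10 kb the shares were 1.77%, 1.93% and 1.01%, so at that distance the mirror set was as often near such a region as the members. Within 200 kb they were 19.4%, 17.8% and 14.7%. The median distance was 789 kb for members, 816 kb for the mirror set and 966 kb for all shared regions. In lists of equal length the 50 kb share was 5.72% for members and 3.68% for all shared regions. These distances are descriptions and were not tested.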

How the data were processed

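Open chromatin was profiled by ATAC-seq in 9 libraries of edited 22Rv1 cells, 3 for each of WX-02-23, WX-02-43 and DMSO, grouped by the labels. Per the submitters' processing notes, Bowtie2, MACS2 and build hg19 were used, with no settings stated. The authors deposited 1 peak list per library. Each list gives, per the layout of the deposited files, a fold ratio over the local background, and −log10 p-values and q-values at the summit. The authors' deposited summit offset was used for the summit position alone, and their deposited integer score was not used. Read totals, and so sequencing depth, are unknown; fewer reads weaken a −log10 p, and ranks within a list reduce this effect without removing it.

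Peaks were merged, ranked and chosen as the opening describes, with Python 3.11.15, numpy 2.4.6, pandas 2.3.3 and scipy 1.17.1. Fragments at the summit were solved from the fold and −log10 p by MACS2's formulas, and came out whole within 0.002 in 100% of peaks, against 0.9% to 1.46% after shuffling. WX-02-43 against DMSO was tested with limma 3.58.1 in R 4.3.3 on quantile-normalized log2 fold enrichment over all 59637 shared regions, all 9 libraries sharing 1 estimate of the spread, with Benjamini-Hochberg adjustment. The test was tried on simulated data. The p-values measure the spread between these libraries, which may be technical.

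Members, comparisons and named regions were chosen with earlier results of these data known. Named are the 12 members of largest difference, the next 8 of lowest mean WX-02-23 fraction, 3 regions on each side of the threshold, the median member, any member called between WX-02-43 and DMSO, and members of the densest 100 kb windows. By that rule 3 windows were to be named; as 6 tied behind the first, members of 3 of these are described, chosen after their values were seen. Ranking among shared regions for the left-out libraries, WX-02-43 against DMSO and neighbours, and the range of strength from 0.3 to 0.8, were added after seeing the data. Motifs and nearest genes were not analysed here.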

Additional observations from a re-analysis of the deposited data

How the results depend on the processing

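Of 60 results under other settings, 50 stayed within the limits set for an unchanged result, as did 46 of 54 with 1 library left out. The cause of the others was not tested. These limits allowed small values to change sign. The median difference of the nearest shared region that was no member was -0.00493 as reported, 5.04e-05 ranked by fold and 0.00394 in lists of equal length. The number of members was 1293 where each library had to cover 50% of a region, and 2466 to 4116 without 1 library, with 4005 without WX-02-23 replicate 2 and 4116 without WX-02-23 replicate 3. Of the 2255 members, 1704 (75.6%) were kept when ranked among shared regions, 1454 (64.5%) when ranked by fold, 1485 (65.9%) in lists of equal length and 1026 (45.5%) under all 3. In lists of equal length 286 members were no longer held by all 9 libraries, and 75.4% of the 1969 that were met the criteria. The share of members near a region called only with WX-02-23 was 6.03% ranked by fold (all shared regions 4.28%), 5.72% in lists of equal length (3.68%), 5.94% with −log10 q of at least 5 (3.85%), 1.77% within 10 kb (1.01%), 19.4% within 200 kb (14.7%), and 11.2% where at most 1 of the other 6 libraries could hold the neighbour (7.92%). Without 1 library it was 6.99% to 10.3%, and that of all shared regions 4.47% to 7.99%, both highest without WX-02-23 replicate 2. For WX-02-43 against DMSO, the members without overlap were 205 stronger and 85 weaker, and limma on log2 rank fractions called 1 member weaker. Over all 59637 shared regions that setting called 0 stronger and 6 weaker. Without 1 library, limma called 0 to 2 members stronger and 0 to 1 weaker, the highest without DMSO replicate 3. The median rank difference of members was then -0.0399 to -0.00192. The nearest shared region that was no member had a median difference of -0.0103 to 0.00478 without 1 library.

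Replicate numbers showed no pairing common to the 3 groups: of 9 correlations between same-numbered libraries (-0.12 to 0.136) 1 was above 0.1. Between WX-02-43 and DMSO, same-numbered libraries gave 0.136, 0.0215 and 0.0774, and differently numbered ones -0.112 to 0.0429. Between WX-02-23 and either other group, all same-numbered correlations were negative (-0.12 to -0.00447). With the replicate number as a block, limma called 0 members stronger and 0 weaker with WX-02-43, and over all shared regions 0 stronger and 1 weaker. Weak peaks stack few fragments, and peak lists hold nothing below the authors' threshold, so regions missed in 1 library are outside the set whatever their change.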

Other observations

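The variation among replicates differed between the sets. The SD of the rank fraction over the 3 WX-02-23 libraries had a median of 0.0374 over members, 0.0698 over the regions weaker with WX-02-23 and 0.048 over all shared regions. The SD over the 6 other libraries had a median of 0.0856 over members, 0.0524 over the regions weaker with WX-02-23 and 0.0628 over all shared regions. The rule requires that the 3 WX-02-23 fractions lie on 1 side of the others, so it bears on these values, and they were not tested.

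Members that met the criteria under all 3 other rankings (among shared regions, by fold and in lists of equal length) had a median rank difference of -0.221, and the remaining members had one of -0.162.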
